A study of Mus musculus with 4 samples.

Results

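The genes described here were 10 markers of simple epithelium and of mesothelium, chosen by name with earlier results of these data known. They were the keratins Krt7, Krt8, Krt18 and Krt19, and the mesothelial genes Msln, Wt1, Upk3b, Upk1b, Lrrn4 and Muc16. All 10 were listed in each of the 4 gene tables, which joined to 29835 genes. They were measured by single-cell RNA sequencing of ascites, the fluid that fills the abdomen in advanced ovarian cancer, with 1 library per treatment. ID8-Trp53-/- cells, a Trp53-deficient line derived from mouse ovarian surface epithelium, had been injected into the peritoneal cavity of C57BL/6 mice, and treatment started after an engraftment of 7 days. The control library came from mice given DMSO vehicle and an IgG2a isotype antibody, and the BTYNB library from mice given BTYNB, a small-molecule inhibitor of the RNA-binding protein Igf2bp1, with the same isotype antibody. The anti-PD-1 library came from mice given DMSO and the blocking antibody RMP1-14, and the combination library from mice given BTYNB and RMP1-14. The labels state 50 mg/kg for BTYNB and 100 ng per dose for the antibodies, and the study's methods state other amounts. Every mouse carried the Trp53-/- line, animals of a treatment were pooled before capture, and mice were followed until about 3 mL of ascites had formed. A library therefore carried no spread between animals, and a difference between treatments could not be told apart from a difference between libraries. Where 4 values follow each other without names, they stand in the order control, BTYNB, anti-PD-1, combination.

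Keratins are the intermediate filaments of epithelial cells. A type II keratin such as Krt8 or Krt7 pairs with a type I keratin such as Krt18 or Krt19, and the pairs build the network that gives the cell its mechanical strength. The ovarian surface epithelium is continuous with the mesothelium, the cell layer that lines the peritoneal cavity. Both layers express simple keratins together with Wt1, a zinc-finger transcription factor of the coelomic lineage, and with mesothelin, uroplakins and the membrane mucin Muc16, which binds mesothelin.

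Tumour cells were gated without any of the 10 genes, as cells with at least 10 UMIs (unique molecular identifiers, each counted as 1 captured RNA molecule) of Tm4sf1, Sparc and Lgals7 together and 0 UMIs of the leukocyte gene Ptprc. The gate held 7173, 3353, 10896 and 4373 cells, of 7834, 18283, 12019 and 7042 cells kept. Leukocytes, taken as cells with at least 1 Ptprc UMI and at most 3 UMIs of the gate genes, served as background and numbered 260, 10507, 276 and 1615. The libraries held between 78603888 and 114600397 UMIs, the median gated tumour cell between 7173 and 16242 UMIs, and any pair of libraries shared at most 4 cell labels. In the gated tumour cells 8 leukocyte markers summed to 55.4 to 177 CPM (a gene's share of all UMIs of the summed cells, scaled to 1e6), against 7168 to 17712 CPM in the gated leukocytes. The tumour cells also held 4 endothelial markers at 22.8 to 37.4 CPM, 5 erythroid markers at 18.7 to 71.1 CPM and 4 fibroblast markers at 246 to 363 CPM. Igf2bp1, the target of BTYNB, was at 8.56, 9.07, 12.0 and 11.5 CPM in the tumour cells.

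The promoters of the partner keratins and of the other genes with a sequence at hand are described before their expression, since Krt8 and Krt18 are neighbouring genes. RefSeq's table for the build GRCm38.p6 held the promoter, from 250 bases before to 50 after the annotated start, of 6 of the 10 members, whereas the UMIs had been counted on GRCm39. Krt8 and Krt18 are adjacent protein-coding genes on chromosome 15 and are transcribed away from each other, and Krt7 lies on the same chromosome between Krt80 and Krt87. Of the 6 promoters, 4 are shown, the keratin promoters to compare partner genes and that of Upk3b as a mesothelial gene. Capitals mark matches, on either strand, to a GC box, an AP-1 site, a TATA box or a CCAAT box. The GC box was searched as GGGCGG. The AP-1 site was searched as TGANTCA, and N stands for any base. The TATA box was searched as TATAAA, and the remaining motif by the letters of its name.
Krt8, chr15:102004293-102004592, minus strand: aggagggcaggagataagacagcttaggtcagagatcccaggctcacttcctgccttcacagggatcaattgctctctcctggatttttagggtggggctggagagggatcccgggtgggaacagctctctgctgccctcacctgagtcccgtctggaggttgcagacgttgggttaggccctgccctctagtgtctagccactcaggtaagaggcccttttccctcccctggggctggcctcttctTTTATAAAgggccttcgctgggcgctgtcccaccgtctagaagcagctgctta
Krt18, chr15:102027966-102028265, plus strand: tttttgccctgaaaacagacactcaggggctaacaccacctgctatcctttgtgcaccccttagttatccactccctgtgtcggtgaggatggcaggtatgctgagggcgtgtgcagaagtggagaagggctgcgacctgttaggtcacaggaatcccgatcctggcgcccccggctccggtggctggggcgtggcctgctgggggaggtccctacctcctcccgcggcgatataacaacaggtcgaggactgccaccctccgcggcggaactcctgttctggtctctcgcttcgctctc
Krt7, chr15:101412153-101412452, plus strand: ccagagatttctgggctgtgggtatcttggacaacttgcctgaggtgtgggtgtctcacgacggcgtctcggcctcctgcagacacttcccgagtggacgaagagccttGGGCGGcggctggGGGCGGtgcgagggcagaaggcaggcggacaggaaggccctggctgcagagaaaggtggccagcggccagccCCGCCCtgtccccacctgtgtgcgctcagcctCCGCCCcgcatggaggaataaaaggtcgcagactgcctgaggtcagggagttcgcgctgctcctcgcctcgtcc
Upk3b, chr5:136038246-136038545, plus strand: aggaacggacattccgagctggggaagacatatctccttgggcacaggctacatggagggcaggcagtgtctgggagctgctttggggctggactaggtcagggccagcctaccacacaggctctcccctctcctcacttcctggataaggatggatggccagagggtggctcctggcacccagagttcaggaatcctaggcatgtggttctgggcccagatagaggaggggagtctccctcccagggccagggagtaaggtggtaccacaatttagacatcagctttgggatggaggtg
Krt8 held 1 run of letters that reads as a TATA box on both strands, and Krt7 held 4 GC boxes. No letters of these 4 motifs were found in the windows of Krt18, Upk3b, Lrrn4 and Muc16. Over 32851 promoters of the same length, 35.7% held a GC box, 7.81% an AP-1 site, 13.6% a TATA box and 37.4% a CCAAT box. The windows of Krt7, Krt8, Krt18 and Upk3b were 66.3%, 58.0%, 61.3% and 58.7% G or C.

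All 10 members were higher in gated tumour cells than in gated leukocytes of every library. The keratin Krt8 was at 352, 317, 480 and 305 CPM in tumour cells, against 12.9 to 34.3 CPM in leukocytes. Its type I partner Krt18 was at 374, 453, 678 and 375 CPM, against 13.3 to 40.2. Krt19, a type I keratin of ducts and simple epithelia, was at 528, 718, 887 and 757 CPM, against 19.0 to 61.9. Krt7, a type II keratin of ducts and mesothelium, was detected at a low level, 10.2, 15.5, 15.1 and 13.4 CPM, against 0.518 to 1.09 in leukocytes, where control and anti-PD-1 rested on 1 UMI each. The anti-PD-1 library was the highest of the 4 for Krt8, Krt18 and Krt19, in tumour cells and in leukocytes alike. The 95% Poisson intervals of its tumour cells did not overlap those of any other library for these 3 genes, and these intervals cover counting error only.

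Among the mesothelial members, Wt1 was at 750, 908, 649 and 882 CPM in tumour cells, and at 78.0 to 111 CPM in leukocytes. Upk3b, a uroplakin of mesothelial membranes, was at 513, 642, 449 and 604 CPM, against 19.1 to 32.6. Upk1b, a tetraspanin of the uroplakin family, was at 204, 269, 239 and 244 CPM, against 6.12 to 13.4. Wt1 and Upk3b thus had the same order of libraries, with BTYNB the highest, combination next, control below it and anti-PD-1 the lowest. Msln, the precursor of mesothelin, was at 51.4, 68.5, 74.9 and 62.2 CPM and was lowest in control. Muc16, the membrane mucin that carries the tumour antigen measured in ovarian cancer serum, was at 44.3, 79.2, 37.7 and 76.3 CPM. Lrrn4, a leucine-rich repeat protein of mesothelium, was at 10.9, 14.4, 8.27 and 12.2 CPM. For Muc16 and Lrrn4 as well, both libraries with BTYNB were above both libraries without it, and anti-PD-1 was the lowest. Neighbours whose intervals overlapped were BTYNB and combination for Muc16, anti-PD-1 with both BTYNB and combination for Krt7, anti-PD-1 and combination for Upk1b, control and combination for Krt18, and control and combination for Lrrn4.

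**Figure D1:**
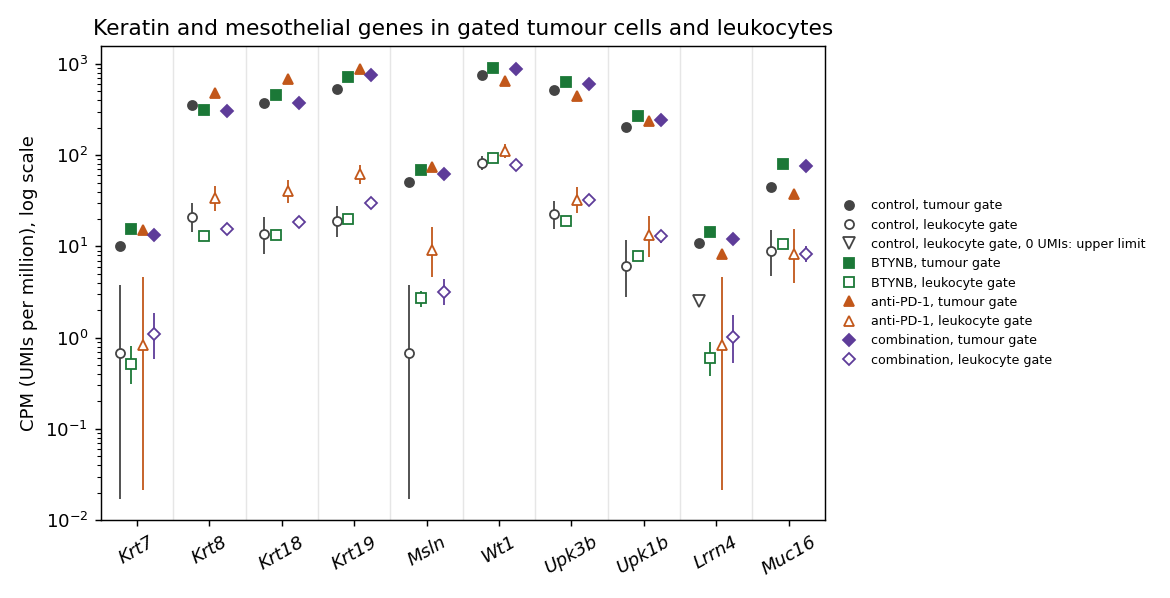
CPM of each member (log axis) in gated tumour cells (filled) and gated leukocytes (open) of the 4 libraries, with 95% Poisson intervals, and an open triangle pointing down for the upper limit of Lrrn4, of which the control leukocytes held 0 UMIs. The tumour cells lie above the leukocytes for all 10 genes, and the gap is smallest for Muc16 and Wt1.

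With the 4 libraries as blocks, the edgeR quasi-likelihood test called 10 of 10 members higher in tumour cells at a Benjamini-Hochberg adjusted p under 0.05. Of the 17440 genes tested, 34.2% were called higher and 27.2% lower. The members had been chosen as tumour genes with earlier results of these data known. The calls therefore describe the members and give no independent support. The log2 change was 4.54 for Krt19 (SE 0.22, edgeR adjusted p = 6.3e-09), 4.53 for Upk1b, 4.48 for Krt18, 4.34 for Upk3b, 4.19 for Msln, 4.13 for Krt8, 4.12 for Krt7 and 4.04 for Lrrn4. It was smaller for Wt1 (3.05, SE 0.17, edgeR adjusted p = 2.2e-08) and Muc16 (2.67, SE 0.20, edgeR adjusted p = 2.6e-07). In leukocytes Wt1 stood at 8.84 to 17.1% and Muc16 at 10.8 to 22.2% of the tumour level, and the other 8 members at 0 to 12.3%. Free RNA and the leukocytes' own RNA cannot be told apart here.

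The other genes of the fixed lists set the frame for this profile. Of the 9 wider keratins 6 could be tested, and 5 were higher and 1 lower in tumour cells. Krt23, a type I keratin, was higher (edgeR log2 change 5.14, SE 0.45), and Krt80 was lower (-2.75, SE 0.17). Krt5 and Krt6a, keratins of stratified epithelium, had at most 22 UMIs in any library's tumour cells. All 6 genes that tie keratins to cell junctions (Dsp, Dsg2, Jup, Pkp2, Ppl and Plec) were higher. Of 8 epithelial markers 6 could be tested, 3 higher and 3 lower. Cldn3, a tight-junction claudin, was higher (4.96, SE 0.80), while Ocln (-3.23, SE 0.47) and Epcam (-5.19, SE 0.60) were lower in tumour cells than in leukocytes. Levels were low, with means over libraries of 1.59 CPM in tumour cells and 0.216 in leukocytes for Cldn3. For Ocln they were 0.106 and 0.872 CPM. Epcam, the adhesion molecule by which epithelial cells are usually recognised, was at 0.0929 to 0.218 CPM in tumour cells, and Cldn7 had 1 UMI in the tumour cells of the 4 libraries together. Of 10 further mesothelial genes 9 could be tested, and 8 were higher and 1 lower, Nkain4 the most (4.94, SE 0.28), while Calb2, which encodes the mesothelial marker calretinin, was at 0.0398 to 0.0895 CPM. Of 6 mesenchymal genes 3 were higher and 1 lower. The gated cells thus carried simple keratins, Wt1 and uroplakins with the defining markers Epcam and Calb2 near 0.

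Single cells were compared after each was thinned to 2000 UMIs. At that depth 1 or more UMIs of Krt8 were found in 46.9% of control tumour cells (95% exact binomial interval 45.7 to 48.0), in 42.0, 54.7 and 41.1% of those of the other libraries, and in 2.57 to 6.88% of leukocytes. The unthinned shares of Krt8 were 87.3 to 89.7% in tumour cells. Wt1 was found in 75.6%, 79.4%, 68.7% and 78.0% of tumour cells in the same order, and in 13.0 to 13.7% of leukocytes, so that the share in leukocytes was alike in the 4 libraries. Krt7 and Lrrn4 were found in 1.82 to 3.10% of tumour cells. The thinned tumour cell held a median of 3 members in control and 4 in the other libraries, and the thinned leukocyte 0. None of the 10 genes was found in 141 of 7173 control tumour cells (1.97%, 95% interval 1.66 to 2.31), and in 0.938 to 0.982% of the tumour cells of the other libraries. In leukocytes the corresponding share was 62.0 to 75.0%. At least 1 keratin and at least 1 mesothelial member were found together in 77.7, 84.0, 79.4 and 84.3% of tumour cells. Thinning left out 96 BTYNB tumour cells and 4123 BTYNB leukocytes, which had fewer than 2000 UMIs, and 0 cells of the other libraries in these gates.

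Pairs of members were then compared with what independent detection would give, the product of their shares. Of 45 pairs, 40 had at least 20 expected cells in every library. In 22 pairs the observed number was above the expected number in all 4 libraries, in 4 it was below in all 4, and in 14 the libraries differed, with ratios from 0.725 to 1.92. The highest ratios lay among the mesothelial genes and Krt7. A ratio cannot exceed 1 divided by the larger share of its pair. Its ceiling is thus lower for widely found genes such as Wt1 than for rarer ones such as Msln and Muc16. The order of pairs therefore also depends on how widely their genes were found. Msln and Muc16, which encode binding partners, had ratios of 1.51 to 1.92. The uroplakins Upk3b and Upk1b had ratios of 1.22 to 1.53, and Upk3b and Muc16 of 1.26 to 1.70. Krt7 went with these genes as well, at 1.31 to 1.81 with Upk3b and 1.45 to 1.86 with Upk1b. The filament partners Krt8 and Krt18 gave 1.04 to 1.10. The 4 pairs below 1 in all libraries each held Krt8, with Lrrn4 (0.725 to 0.941), Muc16 (0.872 to 0.962), Upk3b (0.901 to 0.981) and Wt1 (0.968 to 0.988). The summed keratin and the summed mesothelial UMIs of a thinned cell had a Pearson r of 0.14, 0.05, -0.09 and 0.04, over 3257 to 10896 cells that share a library and a depth. These figures describe cells of single libraries and carry no test.

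**Figure D2:**
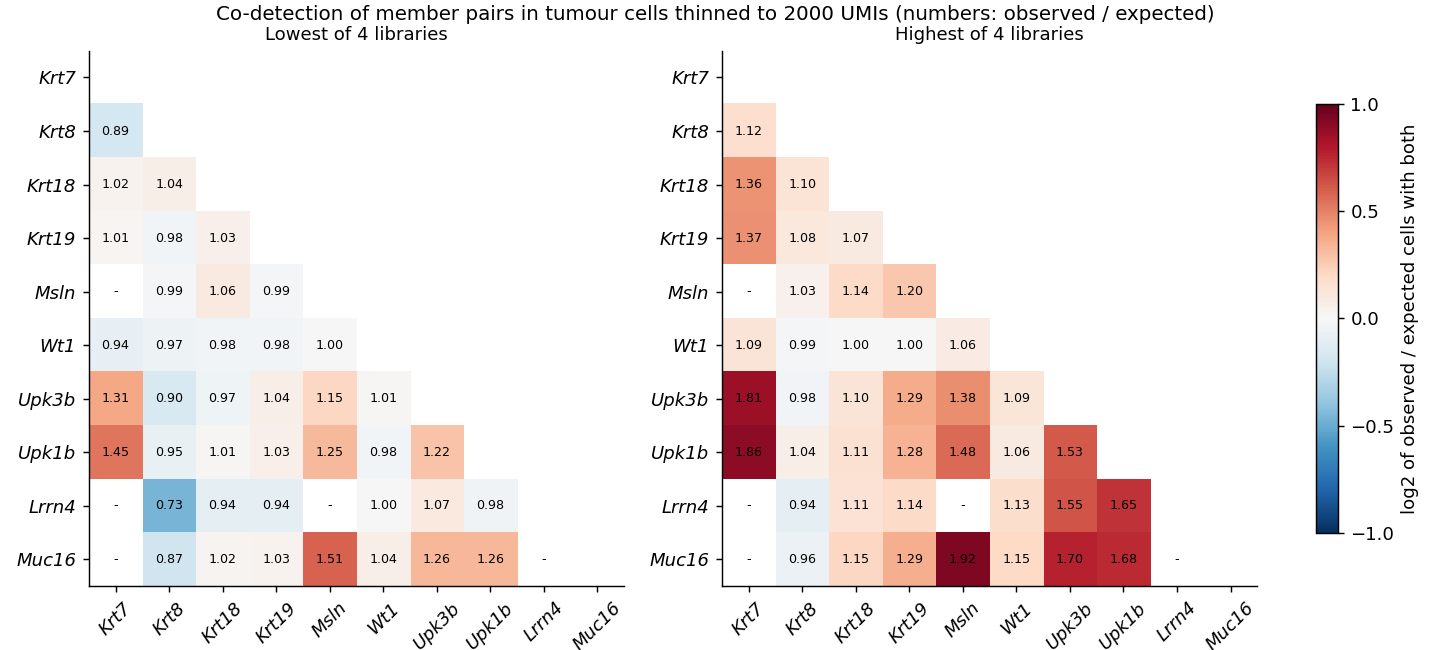
Observed over expected number of thinned tumour cells with both genes of a pair, as the lowest (left) and the highest (right) of the 4 libraries, with colour on a log2 scale and a dash for pairs with fewer than 20 expected cells in a library. Pairs among the mesothelial genes and Krt7 reach 1.92, and Krt8 with Lrrn4, Muc16, Upk3b or Wt1 stays under 1 in both panels.

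Among 9747 genes ranked by mean Pearson r over the 4 libraries, the genes most like the summed keratins across thinned tumour cells were S100a6, a calcium-binding protein (mean r 0.25, 0.19 to 0.39 over libraries), Crip1 (0.19), Cystm1 (0.17), Lgals2, a galectin (0.16), and the tetraspanin Tspan8 (0.13). For the summed mesothelial members they were Gpm6a, a membrane glycoprotein (mean r 0.34), Ezr, which encodes ezrin and ties membranes to actin (0.34), Pkhd1l1 (0.33), Igfbp5, which binds insulin-like growth factors (0.31), and ENSMUSG00000121069 (0.28). The correlations with the keratins were weak.

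Treatment was examined next in the gated tumour cells. With 1 library per treatment no test could be made, and values are log2 ratios of levels to which 1 CPM was added, and all-gene shares refer to the 13179 genes that reached 100 UMIs in a library. Their 95% intervals come from the counts without the pseudocount and cover counting error only. With the 1 CPM added, no member passed 2-fold in any of the 4 contrasts. Of all genes, 0.857% passed 2-fold when BTYNB was set against control, and 2.98% passed it when anti-PD-1 was. For the combination library the share was 2.95% against anti-PD-1 alone and 0.144% against BTYNB alone. The member nearest to 2-fold was Muc16.

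Muc16 was higher with BTYNB in both contrasts, by 0.82 (0.77 to 0.90) without the antibody (BTYNB against control) and by 0.998 (0.95 to 1.08), just under the 2-fold line, for combination against anti-PD-1. Without the added 1 CPM, the ratio of Muc16 for combination against anti-PD-1 was just past that line. Wt1 (0.28 and 0.44), Upk3b (0.32 and 0.43) and Lrrn4 (0.37 and 0.51) were also higher with BTYNB in both. Krt8 was lower in both, at -0.15 and -0.65. Upk3b did not keep its direction in every subset of the splits described below. It was at 295, 274, 328 and 244 CPM in cells that passed none, and at 926, 827, 781 and 754 CPM in cells that were Aldh1a1-high only. In Cxcl17-high cells outside the Cd24a-high set, with or without Aldh1a1, it was higher with BTYNB in both contrasts. Aldh1a1-high cells made up 66.0, 77.4, 66.5 and 81.3% of the tumour cells, and the part of this share was not tested. Krt18 was at 0.28 without and at -0.85 with the antibody, so its direction differed between the contrasts. Krt7 (0.57 and -0.17), Krt19 (0.44 and -0.23) and Msln (0.41 and -0.26) differed in direction as well, and Upk1b was at 0.40 and 0.03. The median over members was 0.38 without the antibody, where the median of all genes was -0.00103, and -0.07 with it, where that of all genes was 0.05.

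In the contrast of anti-PD-1 against control the keratins were all higher, while the mesothelial genes went both ways. Of all genes, 40.2% were above 0 in this contrast. Krt18 was higher by 0.86 (0.84 to 0.88), Krt19 by 0.75, Krt7 by 0.53 and Krt8 by 0.45, and their median was 0.64. Msln (0.53) and Upk1b (0.23) were higher too. Wt1 (-0.21), Upk3b (-0.19), Lrrn4 (-0.36) and Muc16 (-0.23) were lower, and the median over the mesothelial members was -0.20 beside a median of all genes of -0.07. For combination against BTYNB the members lay between -0.27 (Krt18) and 0.08 (Krt19). Muc16 was at -0.05 there, with an interval from -0.12 to 0.01. The library anti-PD-1 takes part in 2 of the 4 contrasts, so that its levels enter both. Without the tumour cells that held a UMI of any of the 8 leukocyte markers, Muc16 was at 0.12 and Krt18 at 0.62 for anti-PD-1 against control. Cd52, one of these markers, was at 11.1, 20.9, 100.2 and 27.6 CPM in tumour cells, and its part in the result was not tested.

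**Figure D3:**
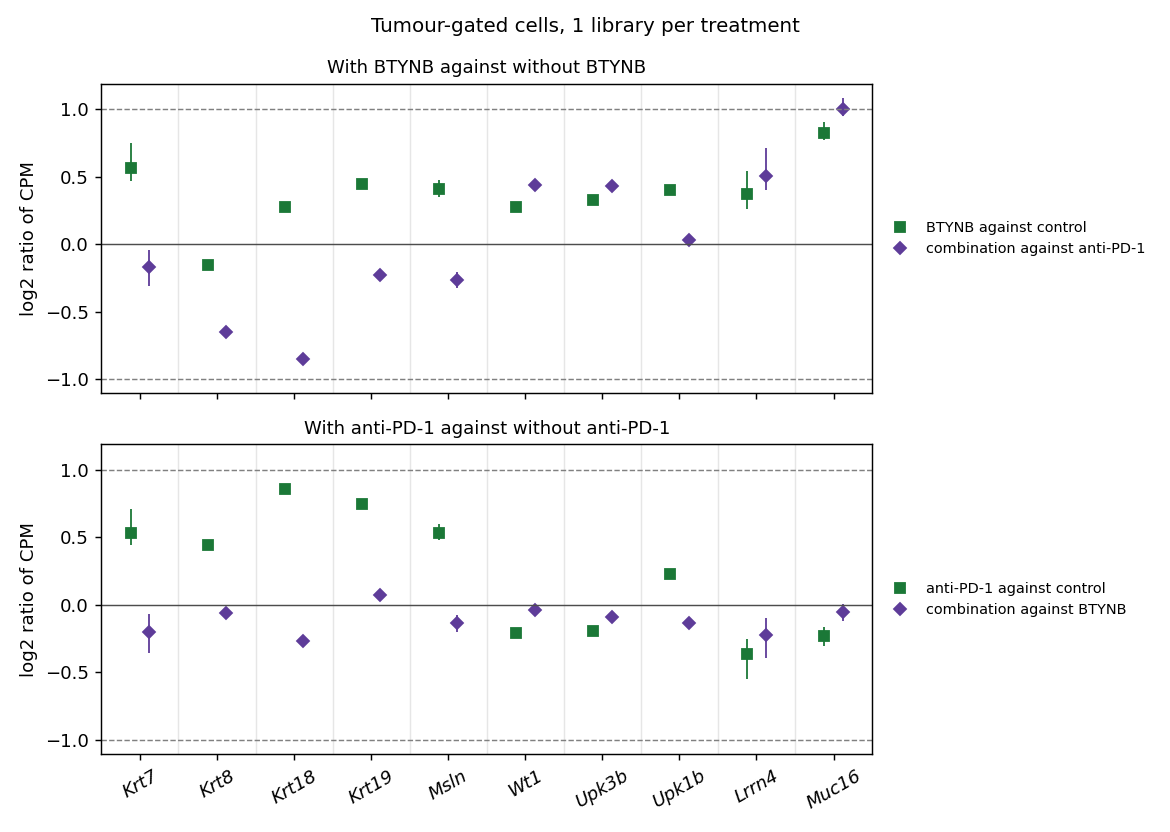
Log2 ratio of CPM of each member between tumour-gated cells of 2 libraries, with 95% counting intervals and dashed lines at 2-fold: libraries with BTYNB against those without (upper) and libraries with anti-PD-1 against those without (lower). All points lie within the dashed lines, Muc16 touches the upper line for combination against anti-PD-1, and Krt18 lies at 0.86 and -0.85 in the contrasts that hold the anti-PD-1 library.

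Of 30 genes of the 5 lists that passed the count filter in these contrasts, none was past 2-fold in the same direction in both BTYNB contrasts or in both anti-PD-1 contrasts. Krt23 stood apart in 1 library, at 3.29, 4.37, 44.3 and 2.67 CPM. It was chosen for mention after its values were seen.

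Tumour cells were next split by genes that are no members: Aldh1a1-high cells (at least 3 UMIs of this retinaldehyde dehydrogenase), Cxcl17-high cells (at least 3 UMIs of this mucosal chemokine) and Cd24a-high cells (at least 5 UMIs of Cd24a, Gkn2 and Krtdap together). Each set was compared with the cells that passed none of the 3 splits, which numbered 1017, 496, 1841 and 404. Sets overlapped, and all shared these remaining cells. A split on UMIs also picks deeper cells: the median was 3993 to 7710.5 UMIs in remaining cells and 9140 to 26649 in Cd24a-high cells. For each set 4 libraries gave 1 sum each, and edgeR's quasi-likelihood test was made with the library as a block, so that libraries of different treatment stood as replicates.

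Aldh1a1-high cells carried more of the mesothelial surface genes. Upk3b was at 661, 698, 560 and 667 CPM in Aldh1a1-high cells, and at 295, 274, 328 and 244 CPM in the remaining cells. Upk1b was at 254, 288, 296 and 266 CPM, against 122, 151, 157 and 129. For these 2 genes the ranges of CPM over the libraries did not overlap, and the share of all genes for which this held was not counted. Of 10 members 7 rose and 0 fell, where 8.2% of 16148 genes rose and 9.18% fell. Upk3b rose by 1.21 (SE 0.08, edgeR adjusted p = 3.9e-07) and Upk1b by 1.03 (SE 0.05, edgeR adjusted p = 1.5e-08), each in 4 of 4 libraries. Muc16 (0.65), Krt19 (0.50), Krt18 (0.49), Msln (0.48) and Krt8 (0.24, edgeR adjusted p = 0.0095) also rose in 4 of 4 libraries. The call on Krt8 was lost without the anti-PD-1 library (0.18, edgeR adjusted p = 0.055), and with the splits made on cells thinned to 4000 UMIs Krt8 was at -0.027 (edgeR adjusted p = 0.72). Krt7 was at 0.58 (edgeR adjusted p = 0.057), with BTYNB alone below 0, and without BTYNB it was called (0.93, edgeR adjusted p = 0.00032). Wt1 (0.04) and Lrrn4 (0.09) did not pass the test. Of the wider lists, 7 of 9 mesothelial genes rose and 2 fell, among them Nkain4 (0.95, SE 0.08) and Gpm6a (0.92, SE 0.07) upward. Of 6 keratin linkers 4 rose, of 6 wider keratins 1, Krt23, which was called at 1.21 (SE 0.27) but not without each library (largest edgeR adjusted p = 0.61). Of 4 epithelial markers 1 fell, and of 6 mesenchymal genes 1 rose and 2 fell.

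Cxcl17-high cells carried more Krt18, Upk1b and Krt8 than the remaining cells. Of 10 members 3 rose and 0 fell, where 4.52% of 15061 genes rose and 7.47% fell: Krt18 by 0.61 (SE 0.10, edgeR adjusted p = 0.0061), Upk1b by 0.57 (SE 0.12, edgeR adjusted p = 0.016) and Krt8 by 0.44 (SE 0.10, edgeR adjusted p = 0.020), each in 4 of 4 libraries. Krt18 stood at 381, 491, 851 and 402 CPM in Cxcl17-high cells, and at 309, 357, 449 and 286 CPM in remaining cells, so the ranges overlapped while every pair within a library differed. Krt19 had a similar size (0.44, edgeR adjusted p = 0.051) and was called without the anti-PD-1 library. Upk3b was at 0.57 but in 3 of 4 libraries (edgeR adjusted p = 0.12), and it was called at 0.84 without the anti-PD-1 library. The calls on Krt8 and Upk1b were lost without the combination library, that on Krt8 also without control and that on Upk1b also without BTYNB, so that 1 to 5 members, and 471 to 2410 genes, were called when a library was left out. Of the wider lists 1 of 6 wider keratins and 2 of 6 keratin linkers rose, of 9 mesothelial genes 2 rose, among them Efemp1 (0.64), and 2 fell, and 1 epithelial and 2 mesenchymal genes fell. The call on Efemp1 did not hold without each library (largest edgeR adjusted p = 0.12). Cdh1, the epithelial cadherin, was at 0.67 (edgeR adjusted p = 0.11), and Krt23 at 1.63 (edgeR adjusted p = 0.080).

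In Cd24a-high cells Krt8, Krt18 and Krt19 were higher and Muc16 was lower than in the remaining cells, and Krt7 did not pass the test. Krt19 was at 834, 874, 1283 and 911 CPM in Cd24a-high cells, against 437, 580, 574 and 643 CPM in remaining cells. These ranges did not overlap, and the share of all genes for which this held was not counted. Muc16 was at 20.7, 33.2, 6.41 and 27.4 CPM, against 36.9, 53.8, 31.7 and 48.7, lower in 4 of 4 libraries. Of 10 members 3 rose and 1 fell, where 7.71% of 13409 genes rose and 8.88% fell: Krt19 rose by 0.92 (SE 0.14, edgeR adjusted p = 0.010), Krt18 by 0.72 (SE 0.17, edgeR adjusted p = 0.032) and Krt8 by 0.64 (SE 0.13, edgeR adjusted p = 0.022), and Muc16 fell by 1.04 on the log2 scale (SE 0.25, edgeR adjusted p = 0.034). Krt7, at 7.72, 10.7, 4.65 and 7.78 CPM against 6.78, 24.0, 10.8 and 8.26, was lower in 3 of 4 libraries (-0.49, SE 0.27, edgeR adjusted p = 0.24). These calls needed all of control, BTYNB and combination, since without any 1 of these libraries edgeR called 0 members, with adjusted p up to 0.075 for Krt19 and 0.13 for Muc16. Without the anti-PD-1 library 6 were called, Upk3b (1.06) and Upk1b (1.03) among them, but 4389 of 12994 genes were called in that fit, against 2225 of 13409 with all libraries. Krt80 rose (0.94, SE 0.13), Krt23 was called at 2.13 (SE 0.58), with log2 ratios of 1.03, 0.63, 3.30 and 0.17 in the libraries, and Efemp1 was at 1.07 (edgeR adjusted p = 0.053). The calls on Krt80 and Krt23 did not hold without each library (largest edgeR adjusted p = 0.081 and 0.12). Of the wider lists 3 of 6 wider keratins and 1 of 6 keratin linkers rose, and 1 epithelial, 2 mesothelial and 1 mesenchymal gene fell.

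The anti-PD-1 library differed from the other 3 in this set. Upk3b was at 531 CPM in control, 592 in BTYNB and 475 in combination Cd24a-high cells but at 110 CPM in those of anti-PD-1, where the remaining cells had 328 CPM. Upk1b was at 242, 267 and 262 CPM and at 84.1 CPM in anti-PD-1, against 157 in its remaining cells. The log2 ratio of Cd24a-high to remaining cells was -1.56 for Upk3b in anti-PD-1 and 0.85 in control, 1.11 in BTYNB and 0.96 in combination. Wt1 was lower by 0.69 on that scale in anti-PD-1, at 445 against 715 CPM. In this library 5 members were past 2-fold, Krt18 (1.20) and Krt19 (1.16) higher and Krt7 (-1.06), Upk3b (-1.56) and Muc16 (-2.14) lower, beside 4.31% of 10463 genes past 2-fold higher and 7.67% lower. Lrrn4 did not reach the 100 UMIs of this filter and was at 3.87 against 7.98 CPM. The set held 25.2% of the tumour cells of anti-PD-1 and 6.76% to 14.5% of those of the other libraries. Its genes differed too: Gkn2, a gastrokine of stomach epithelium, was at 923 CPM in Cd24a-high cells of anti-PD-1 and at most 0.370 CPM in those of the other libraries, which were picked mainly by Krtdap and Cd24a. The genes by which a cell entered the set thus differed between libraries. Of 8 further mesothelial genes 5 were past 2-fold lower in anti-PD-1 and 0 higher, with a median of -1.36 beside -0.13 for all genes.

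In thinned cells, 932 of 2744 Cd24a-high cells of anti-PD-1 (34.0%, 95% interval 32.2 to 35.8) held a keratin and no mesothelial member, against 5.57, 5.99 and 6.96% in control, BTYNB and combination. The share with a Upk3b UMI was 13.6% in anti-PD-1 and 57.6 to 60.8% in the other libraries at the same depth (unthinned 29.0% and 95.3 to 99.1%). Upk3b was found in 3.82 to 7.25% of thinned leukocytes. Within the Cd24a-high cells of anti-PD-1, Upk3b was at 57.8 CPM in the 504 cells that passed no other split, 243 CPM in the 688 that were also Aldh1a1-high alone, 31.2 CPM in the 520 that were also Cxcl17-high alone and 86.4 CPM in the 1032 that passed all 3 splits. Krt19 was at 988, 1036, 1324 and 1524 CPM in these subsets, so that Upk3b and Krt19 did not follow one order. Cd52 stood at 254 CPM in the Cd24a-high and 53.8 CPM in the remaining cells of anti-PD-1, while Lyz2, a macrophage gene, was at 36.3 and 69.2 CPM. Without the tumour cells that held any leukocyte marker UMI, which left 698 Cd24a-high cells, Upk3b was at -0.41, Muc16 at -1.34 and Krt18 at 1.09. The part of these cells in the result was not tested.

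**Figure D4:**
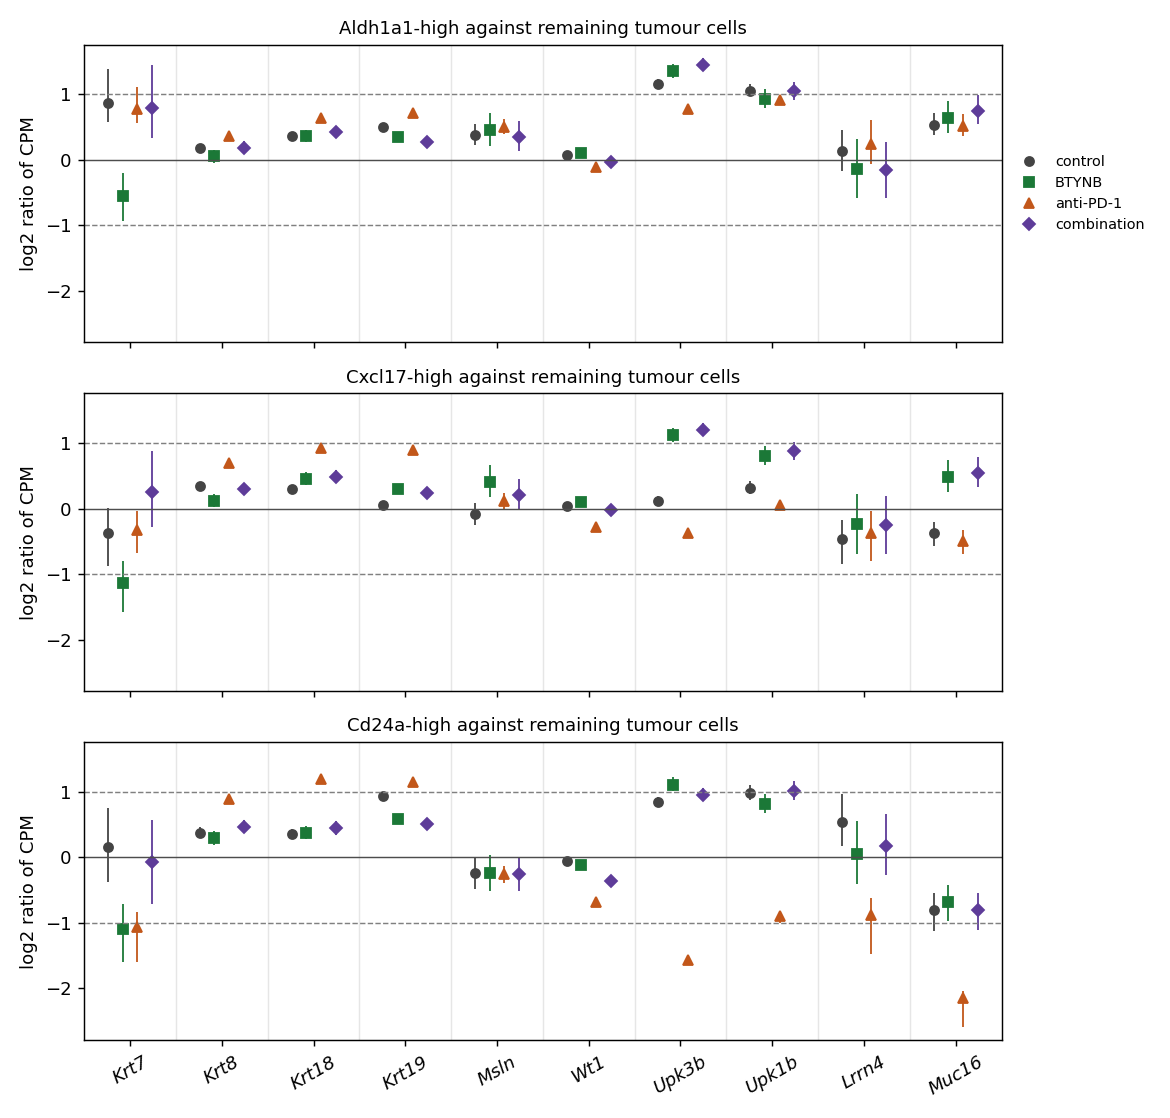
Log2 ratio of CPM of each member between a set of tumour cells and the remaining tumour cells of the same library, with 95% counting intervals and dashed lines at 2-fold, for Aldh1a1-high (top), Cxcl17-high (middle) and Cd24a-high cells (bottom). Upk3b and Upk1b lie above 0 in all libraries in the top panel, and in the bottom panel anti-PD-1 alone lies below 0 for both, at -1.56 and -0.90.

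A small group inside the tumour gate carried a different member profile. It was set apart after the data were seen, by at least 5 UMIs of Col1a1, a fibrillar collagen, since Col1a1 was, with Slpi and Bnc1, among the 3 lowest genes of the wider lists in all 3 sets. The log2 change of Col1a1 was -3.57 in Aldh1a1-high, -5.75 in Cxcl17-high and -5.63 in Cd24a-high cells, that of Slpi, a secreted protease inhibitor, -3.13, -6.24 and -5.86, and that of Bnc1, a mesothelial transcription factor, -3.91, -5.63 and -4.50. The Col1a1-positive cells numbered 82, 48, 116 and 78, 1.06 to 1.78% of the gated cells, and 50, 23, 70 and 36 of them were among the remaining cells. They held 84.8 to 94.2% of the Slpi UMIs, 88.9 to 90.9% of the Bnc1 UMIs and 93.4 to 97.9% of the Col1a2 UMIs of the gate. The fibroblast markers Pdgfra, Col3a1 and Dcn were at 62.3 to 105, 18.2 to 58.9 and 3.33 to 4.26 times the level of the other gated cells. Of the gate genes, Sparc was at 2.41 to 2.97 times that level, Tm4sf1 at 0.320 to 0.476 and Lgals7 at 0.302 to 0.439 times. Trp53 was at 125, 138, 98.4 and 80.4 CPM in the Col1a1-positive cells and at 24.6 to 33.4 CPM in the other gated cells.

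Lrrn4 was at 84.4, 124, 55.8 and 53.3 CPM in Col1a1-positive cells, against 7.88 to 13.1 CPM in the other gated cells, a ratio of 4.64 to 9.46. Krt7 was at 72.4, 122, 47.0 and 39.1 CPM, against 9.60 to 14.9, a ratio of 3.02 to 8.61. Upk1b was higher by 1.29 to 2.06 times. Krt18 stood at 175, 213, 321 and 189 CPM against 376, 456, 681 and 379, Wt1 at 0.611 to 0.717 times and Upk3b at 0.501 to 0.669 times the level of the other cells, and Krt8, Krt19 and Muc16 were lower in all 4 libraries too. Msln was higher in control, BTYNB and combination and lower in anti-PD-1. These cells held 2.56 to 9.44% of the Krt7 UMIs and 5.57 to 10.3% of the Lrrn4 UMIs of the gate, and Calb2 was at 0 UMIs in them. Lyz2 was at 279, 7.28, 437 and 159 CPM in them, against 15.5, 19.7, 39.8 and 47.4 CPM in the others, so it was higher in all libraries but BTYNB. As the threshold was set on these data, no test is given, and the origin of the cells was not tested. Without them 9 of 10 members rose in Aldh1a1-high cells, where 1089 of 15953 genes rose, with Krt7 at 1.25 (edgeR adjusted p = 8.8e-05) and Lrrn4 at 0.66 (edgeR adjusted p = 0.0021) added.

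**Figure D5:**
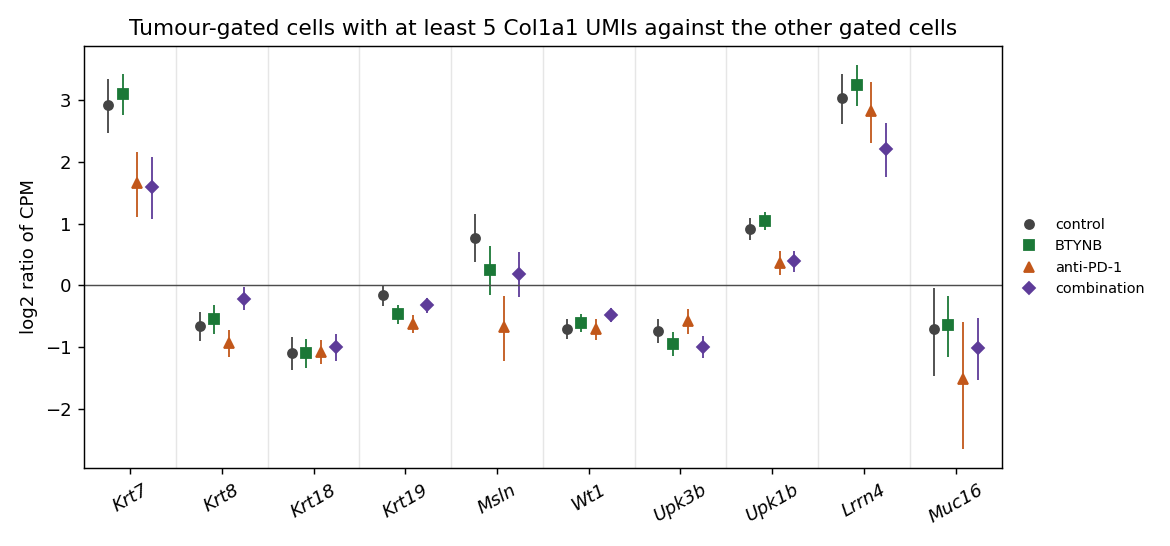
Log2 ratio of CPM of each member between tumour-gated cells with at least 5 Col1a1 UMIs and the other tumour-gated cells of the same library, with 95% counting intervals. Krt7, Lrrn4 and Upk1b lie above 0 and Krt8, Krt18, Krt19, Wt1, Upk3b and Muc16 below 0 in all 4 libraries, while Msln lies on both sides.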

How the data were processed

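Cells of ascites from 4 treatment groups were captured on the BD Rhapsody HT platform, pooled over animals, as 1 library each. The authors counted UMIs per gene and cell with the BD Rhapsody Sequence Analysis Pipeline and deposited raw counts for each library, with genes named by symbol. The build GRCm39 is named in the submitters' processing notes. The counts were used as deposited. Cells with fewer than 200 genes or over 33% mitochondrial UMIs were removed. The study's methods name scDblFinder for doublets. No doublet caller was run here, and an alternative left out the 5% of gated cells with the most UMIs.

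The members and gene lists were chosen with earlier results of these data known. UMIs were summed per library and set of cells, given as CPM with exact 95% Poisson intervals (shares of cells: Clopper-Pearson), and compared between libraries as log2 ratios with a pseudocount of 1 CPM. Intervals cover counting error only. A limit for a count of 0 is the upper Poisson bound. Sets of cells were compared with edgeR 4.0.16 (R 4.3.3; quasi-likelihood test, TMM scaling, genes filtered on low counts, library as a block, Benjamini-Hochberg adjusted p under 0.05 over all genes tested). Its p-values measure the spread between these 4 libraries of different treatment. Standard errors were taken from the log2 change and the F statistic. The Cd24a-high set was tested since at least 3 libraries held 50 such cells. Shares and pairs were compared at a common depth of 2000 UMIs drawn from each cell, without the cells below it. Cells with 10 or 11 gate UMIs and no Ptprc numbered 42, 167, 214 and 25 (control, BTYNB, anti-PD-1, combination), and those just outside the gate, with 8 or 9, numbered 22, 236, 156 and 14. Cells with 10 or more gate UMIs and at least 1 Ptprc UMI, which include possible doublets, numbered 294, 586, 426 and 655 and were in neither gate.

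The text names the 10 members, the genes of the wider lists past 2-fold in both contrasts of an agent or with the 3 highest and lowest log2 changes of a test, and the 5 genes with the highest mean correlation with the summed keratin or mesothelial members. Alternatives were other gates, depth floors, split thresholds, scalings, pseudocounts and filters, DESeq2 1.42.0, no library block and each library left out. Alternatives without the Col1a1-positive cells, with splits on thinned cells and on the Cd24a-high test were added after the data were seen. The scripts were tested on simulated data with known changes. Promoter sequences came from RefSeq (GRCm38.p6).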

Additional observations from a re-analysis of the deposited data

Results flagged for a closer look

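These results were singled out because a member lay on opposite sides of 0 in different libraries or contrasts. None of these differences was tested, since each rests on single libraries.

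The ratio of libraries with to without BTYNB was above 0 without anti-PD-1 and below 0 with it for 4 members. For combination against anti-PD-1 it was -0.17 for Krt7, -0.85 for Krt18, -0.23 for Krt19 and -0.26 for Msln, against 0.57, 0.28, 0.44 and 0.41 for BTYNB against control. The ratio of libraries with to without anti-PD-1 was above 0 without BTYNB and below 0 with it for 5 members. For combination against BTYNB it was -0.20 for Krt7, -0.057 for Krt8, -0.27 for Krt18, -0.14 for Msln and -0.14 for Upk1b, against 0.53, 0.45, 0.86, 0.53 and 0.23 for anti-PD-1 against control. Both lists use the same 4 levels of each member. The gap between its ratios is therefore the same in both, and the lists are not separate results.

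In Cd24a-high against remaining tumour cells the anti-PD-1 library stood alone below 0 for Upk3b (-1.56), Upk1b (-0.90) and Lrrn4 (-0.88), while the other 3 libraries were above 0. For Lrrn4, however, the intervals of BTYNB (0.05, -0.41 to 0.55) and combination (0.17, -0.27 to 0.67) included 0. In Cxcl17-high cells anti-PD-1 was at -0.28 for Wt1 and -0.37 for Upk3b, and at -0.49 for Muc16, where control was at -0.37 and both libraries with BTYNB were above 0. In Aldh1a1-high cells Krt7 was at -0.55 in BTYNB and between 0.78 and 0.87 in the others, and Wt1 was at -0.12 in anti-PD-1 and at 0.07, 0.10 and -0.04 in control, BTYNB and combination. The Krt7 value of BTYNB rested on 67 UMIs in its 496 remaining cells, of which 23 were Col1a1-positive.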

How the results depend on the processing

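Direction and call of the 10 members in tumour cells against leukocytes held under all alternatives run. With no member past 2-fold between treatments in the main setting, 1 member was past it for BTYNB against control and 1 for combination against BTYNB among cells that passed none of the splits (Krt7, 1.69 and -1.43), and 1 (Muc16) for combination against anti-PD-1 with a gate of at least 20 UMIs (1.12), among cells of at least 5000 UMIs (1.20) and without the Col1a1-positive cells (1.002). In Cd24a-high cells of anti-PD-1 the 5 members past 2-fold became 3 without cells holding a leukocyte marker UMI. Without the library block, members called fell to 2 of 7 (Aldh1a1-high), 0 of 3 (Cxcl17-high) and 1 of 4 (Cd24a-high), although each pair of sums came from the same library. With no filter on low counts Cxcl17-high gave 6. Leaving out a library gave 6 to 8 members in Aldh1a1-high, 1 to 5 in Cxcl17-high and 0 to 6 in Cd24a-high cells. Pairs found together above expectation in all libraries numbered 11, of 19 counted, among cells that passed none of the splits, against 22 of 40. Below expectation in all libraries was 1 of these 19, Krt8 with Wt1, against 4 of 40. With tumour cells thinned to 4000 UMIs, 29 of 44 counted pairs were above and 3 below, and Krt8 with Wt1 reached 1.0006. Krt8 in Aldh1a1-high cells turned to -0.027 (edgeR adjusted p = 0.72) with the splits made on cells thinned to 4000 UMIs. Its cause was not tested, nor that of the other changes. Of the log2 ratios of single members that carry no test, 179 counted as moved under alternatives and 364 as unchanged. Of the tested values of single members under alternatives, 446 counted as unchanged, 34 lost and 19 gained the call, and 1 with a call reversed. Values not called in either fit counted as unchanged even where their sign differed. Muc16 in Cxcl17-high cells, for example, ranged from -0.073 to 0.24 with a library left out.

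The counts over all genes moved more. Genes past 2-fold fell from 113, 393, 389 and 19 in the 4 contrasts (BTYNB or anti-PD-1 over control, then combination over anti-PD-1 or over BTYNB) to 12, 111, 121 and 1 with a pseudocount of 10 CPM, and were 173, 108, 200 and 41 among cells that passed none of the splits, of fewer genes tested. Without cells holding a leukocyte marker UMI the counts for the last 3 contrasts were 183, 142 and 6. For Cd24a-high cells of anti-PD-1 1253 genes became 520 without those cells and 551 with a pseudocount of 10 CPM. Calls numbered 2807 in Aldh1a1-high, 1806 in Cxcl17-high and 2225 in Cd24a-high cells, and 392, 215 and 447 without the block. With a library left out they ranged from 1559 to 2697, 471 to 2410 and 1 to 4389. The splits on thinned cells gave 5083, 1163 and 397, and no filter gave 3535 in Cxcl17-high cells. For Cxcl17-high cells a gate of at least 20 UMIs gave 1018 calls, cells of at least 5000 UMIs 1106, and leaving out Col1a1-positive cells 923. For Cd24a-high cells the gate of 20 UMIs gave 1465. Library totals with no TMM scaling changed the split of calls, with 896 of 2747 higher in Aldh1a1-high (1324 of 2807 with TMM), 322 of 1767 in Cxcl17-high (681 of 1806) and 505 of 2398 in Cd24a-high cells (1034 of 2225), while the number of members called stayed at 7, 3 and 4. Depth limited Krt7 and Lrrn4 most, each found in at most 3.10% of thinned cells.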
